A study of Mus musculus with 19 samples.

Results

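The nuclear oxidative phosphorylation subunit genes were described in mouse hippocampus after kainate-induced status epilepticus or saline, in mice with or without EZH2 in neurons. Members were chosen by gene symbol alone: symbols beginning Nduf with a subunit letter and number, Sdha to Sdhd, and symbols beginning Uqcr, Cox4 to Cox8 or Atp5, without those marked as pseudogenes by the ending -ps. The rule found 87 of the 55416 genes in the count table, with 41 grouped by name as complex I, 4 as complex II, 8 as complex III, 17 as complex IV and 17 as complex V. It groups Ndufa4 with complex I by its name, although the protein is now placed in complex IV, and it does not take in cytochrome c or its partner cytochrome c1. Total RNA from the hippocampus, labelled as the right one, of C57BL6 mice was sequenced after removal of cytoplasmic and mitochondrial ribosomal RNA, in 19 libraries. EZH2 is the methyltransferase of the Polycomb repressive complex that places the repressive trimethyl mark on histone H3. The EZH2nHom groups were EZH2(-/-);Syn1Cre(+/-), a homozygous deletion of floxed EZH2 alleles by Cre under the neuronal Synapsin1 promoter, and glia keep the gene. The WT groups were EZH2(+/+);Syn1Cre(+/-), so all mice carried the Cre transgene. Kainate, an agonist of glutamate receptors, was given as repeated low intraperitoneal doses until status epilepticus, and controls received saline; hippocampi were taken on day 4. There were 4 EZH2nHom kainate, 5 EZH2nHom saline, 5 WT kainate and 5 WT saline libraries, and the age of the mice was not given.

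Oxidative phosphorylation takes place in the inner mitochondrial membrane. Complex I oxidises NADH and complex II oxidises succinate, complex III passes the electrons to cytochrome c, and complex IV hands them to oxygen. Complexes I, III and IV pump protons, and complex V, the ATP synthase, uses the proton gradient to make ATP. All but complex II combine subunits from the nuclear genome, described here, with a few from mitochondrial DNA. Neurons are among the heaviest users of this pathway, since restoring ion gradients after firing consumes much of their ATP, and seizures raise that demand.

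The libraries held 24496685 to 43948317 reads, and levels are given as CPM, reads per 1000000 reads of the TMM-scaled library. Of the 87 members, 84 passed the filter on low counts, and 77 of them averaged at least 10 CPM. Ndufa11b, Ndufb11b and Ndufs6b had 8, 1 and 1 reads over all 19 libraries and were not tested. Ezh2, counted over the whole gene, had 16.7, 19.6, 14.5 and 19.4 CPM in EZH2nHom kainate and 15.5, 14.3, 11.8, 13.7 and 12.7 CPM in EZH2nHom saline libraries, against 10.8, 13.1, 19.8, 20.3 and 11.8 CPM in WT kainate and 11, 12.9, 11.5, 11.2 and 9.61 CPM in WT saline libraries. Ezh2 was thus not lower in EZH2nHom libraries, with log2 differences of 0.21 ± 0.17 after kainate (edgeR adjusted p = 0.473) and 0.27 ± 0.16 after saline (edgeR adjusted p = 0.288). A count over the whole gene takes in exons outside a deletion and cells without Cre, so it does not check the genotype, which is given as labelled throughout. Genes of hippocampal neurons were present in every library, with 62.3 to 129 CPM of Prox1. Neurod6 had 93.2 to 125 CPM in EZH2nHom kainate and 195 to 271 CPM in EZH2nHom saline libraries, against 46.4 to 164 CPM in WT kainate and 111 to 144 CPM in WT saline libraries. Zbtb20 had 172 to 623 CPM in EZH2nHom kainate and 265 to 353 CPM in EZH2nHom saline libraries, against 473 to 625 CPM in WT kainate and 413 to 634 CPM in WT saline libraries. EZH2nHom saline libraries were thus above all others for Neurod6 and below all WT libraries for Zbtb20, and the part of this in the differences of the members was not tested. Sample codes in the labels begin with a number that was shared by no EZH2nHom and WT library (0 prefixes in both genotypes), so genotype and this code prefix cannot be told apart in any comparison between genotypes. Within EZH2nHom, no kainate library shared a prefix with a saline library, so kainate and prefix cannot be told apart there either. The labels do not say that each library came from a separate animal, and p-values measure the spread between libraries.

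Promoters are shown for 3 ATP synthase genes, because Atp5md and Atp5e had the smallest p-values of complex V between genotypes after saline, in opposite directions, and Atp5g2 was the 1 member that passed the test after kainate in WT. Each sequence runs 5′ to 3′ on the gene's strand, from 250 bases before to 50 bases after the RefSeq start, in build GRCm38.p6. Capitals mark matches to the motif of GABPA (CCGGAAG or its reverse complement CTTCCGG) in the first pair, and to that of NRF1 (GCATGCGC or its reverse complement GCGCATGC) in the third, where the matches on the opposite strands overlap.
Atp5md, chr19:47090598-47090897, minus strand: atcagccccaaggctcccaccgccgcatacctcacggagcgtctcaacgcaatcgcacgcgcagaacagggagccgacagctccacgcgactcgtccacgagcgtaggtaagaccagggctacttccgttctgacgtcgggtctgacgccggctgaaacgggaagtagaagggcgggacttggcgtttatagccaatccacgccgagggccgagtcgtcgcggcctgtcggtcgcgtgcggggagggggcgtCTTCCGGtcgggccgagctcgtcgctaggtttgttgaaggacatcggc
Atp5e, chr2:174464052-174464351, minus strand: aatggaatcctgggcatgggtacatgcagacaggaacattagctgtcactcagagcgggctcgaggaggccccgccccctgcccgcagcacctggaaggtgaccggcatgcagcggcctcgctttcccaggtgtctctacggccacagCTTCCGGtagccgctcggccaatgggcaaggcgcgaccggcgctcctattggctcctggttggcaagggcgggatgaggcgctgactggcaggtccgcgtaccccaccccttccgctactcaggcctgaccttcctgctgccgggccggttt
Atp5g2, chr15:102670998-102671297, minus strand: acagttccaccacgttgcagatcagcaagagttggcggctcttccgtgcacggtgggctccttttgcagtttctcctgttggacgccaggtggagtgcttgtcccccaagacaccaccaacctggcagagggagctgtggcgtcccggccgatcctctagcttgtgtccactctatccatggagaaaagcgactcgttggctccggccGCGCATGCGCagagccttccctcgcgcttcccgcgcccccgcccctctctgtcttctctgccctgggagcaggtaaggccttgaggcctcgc

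NRF1 and GABPA are transcription factors known to drive many nuclear genes of the respiratory chain. Promoter windows of 300 bases were available for 69 of the 87 members. The NRF1 motif, searched on both strands, was in 10 of them (14.5%), against 5.22% of the 12904 tested genes with a window. For GABPA the count was 17 of 69 (24.6%), against 17% of those genes, and for YY1 (AAGATGGC or GCCATCTT) it was 10 of 69 (14.5%), against 4.51%. After saline, the NRF1 motif was in 0 of 12 windows of members that were higher in EZH2nHom and in 2 of 13 windows of those that were lower, and the GABPA motif was in 3 of 12 and 4 of 13. A match is a run of letters and not a measured binding site.

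The summed level of all members had overlapping ranges in all 4 groups. It was 7133, 9129, 8744 and 8019 CPM in the EZH2nHom kainate libraries and 9404, 8149, 8522, 8590 and 8283 CPM in the EZH2nHom saline libraries. In WT it was 8068, 7862, 7814, 7660 and 9026 CPM after kainate and 8534, 7657, 7874, 8462 and 8126 CPM after saline. The lowest library was EZH2nHom kainate replicate 1, and that group also had the largest spread, 879 CPM (SD, n = 4), against 375 to 545 CPM in the other groups. The groups also overlapped in the sum of each complex. Complex V averaged 3247 ± 424 CPM in EZH2nHom kainate (SD, n = 4), 3330 ± 198 in EZH2nHom saline, 3114 ± 192 in WT kainate and 3137 ± 131 CPM in WT saline libraries (n = 5 each). Complex II averaged 490 ± 61.2 and 490 ± 17.5 CPM in EZH2nHom after kainate and saline, and 525 ± 26.3 and 520 ± 20.2 CPM in WT.

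**Figure D1:**
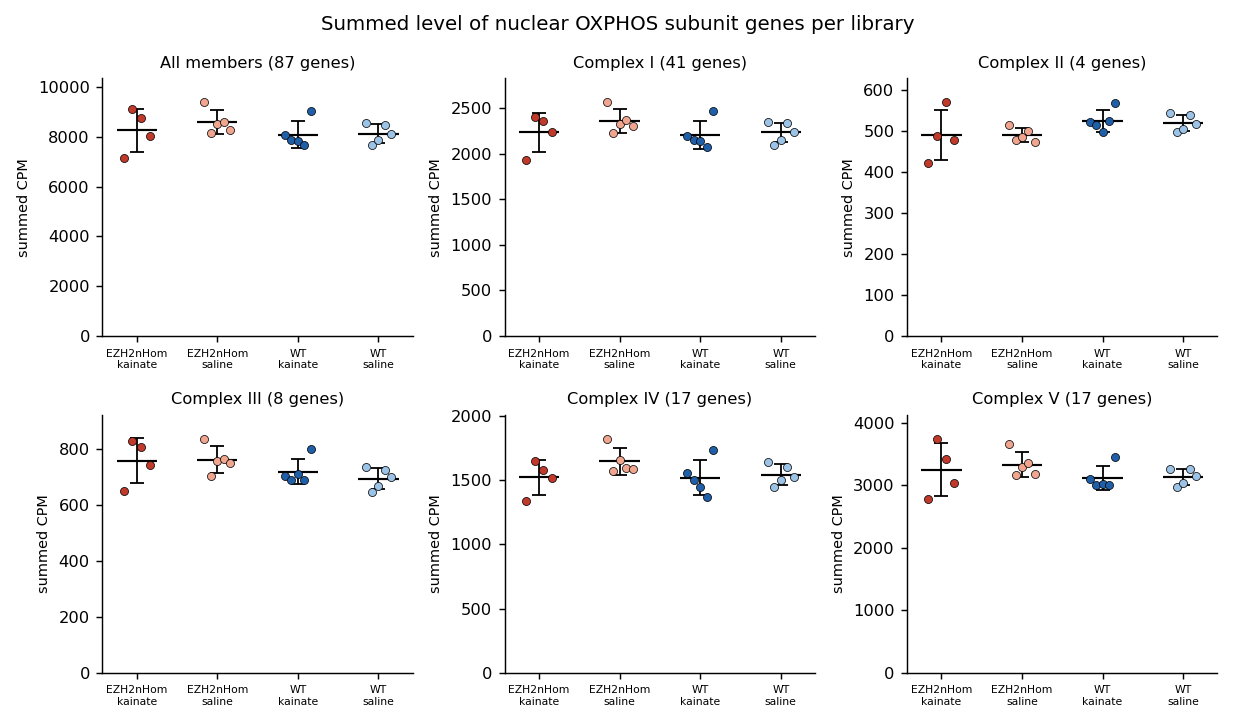
Summed CPM of all 87 members and of each complex, with 1 point per library, a line at the mean and bars of 1 SD, in EZH2nHom kainate (4 libraries), EZH2nHom saline, WT kainate and WT saline (5 each). The groups overlap in every panel, and EZH2nHom kainate replicate 1 is lowest of all libraries for all members, at 7133 CPM.

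Single genes differed while the summed ranges overlapped. In EZH2nHom saline against WT saline libraries, 18 of 84 members were higher and 15 were lower (39.3%), by edgeR's quasi-likelihood test with Benjamini-Hochberg adjustment over 19234 genes at an adjusted p under 0.05. Of all genes tested 13.5% passed (8.33% higher and 5.16% lower), and of the genes averaging at least 10 CPM 20.1% passed, which are the shares to read the members against. The median log2 difference of the members was 0.05, and that of all genes 0.02. By complex, 8 members were higher and 6 lower of 38 tested in complex I, 0 and 1 of 4 in complex II, 2 and 0 of 8 in complex III, and 4 and 4 of 17 in each of complexes IV and V. The ranges of the libraries did not overlap for 20 members that were higher (23.8%) and 16 that were lower (19%), against 12.9% and 8.42% of all genes. With a correction for transcript length and GC content 11 members were higher and 19 lower (35.7%, against 12.1% of all genes), and without WT saline replicate 2 or 3 the counts were 11 and 16, or 11 and 15.

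In EZH2nHom kainate against WT kainate libraries 5 members were higher and 11 lower (19%), where 7.61% of all genes tested (4.56% higher and 3.04% lower) and 11.9% of genes averaging at least 10 CPM passed. The median log2 difference was 0.03 for members and 0.00 for all genes. The ranges did not overlap for 7 members that were higher (8.33%) and 10 that were lower (11.9%), against 4.13% and 3.13% of all genes. No library enters both genotype comparisons. All 18 members that were higher and all 15 that were lower after saline had the same sign after kainate, and among all genes called after saline the shares with the same sign were 91.9% and 90.8%. Of the 18 higher members 5 (27.8%) also passed after kainate, and of the 15 lower members 10 (66.7%) did, against 35.3% and 28.9% of all genes called after saline. In the other direction, 5 of the 5 higher and 10 of the 11 lower calls after kainate were also called after saline. Fitted on the kainate libraries alone, without the spread of the saline groups, 0 members and 4 of 18504 genes passed. Leaving out 1 library at a time gave 11 to 19 members, 3 to 9 higher and 6 to 12 lower.

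After kainate in EZH2nHom, against saline, 6 members rose and 9 fell (17.9%), where 26.1% of all genes (14.3% higher and 11.8% lower) and 29.4% of genes averaging at least 10 CPM passed, and the median log2 change was -0.04 for members and -0.02 for all genes. Of the 9 that fell, 7 were called higher in EZH2nHom than in WT after saline, and of the 6 that rose, 5 were called lower. Both comparisons use the EZH2nHom saline libraries, so these calls are not independent of each other. In WT 1 member rose, Atp5g2, and 0 fell (1.19%), where 12% of all genes (9.47% higher and 2.57% lower) and 11.2% of genes averaging at least 10 CPM passed. The ranges of kainate and saline libraries did not overlap for 2 members that were higher and 7 that were lower in EZH2nHom (9.93% and 9.23% of all genes), and for 3 and 0 members in WT (9.78% and 4.63% of all genes). In WT 4 members had an unadjusted p under 0.05, and DESeq2 called 1 higher and 0 lower. The test of the difference between the 2 kainate responses called 0 of 84 members and 0 of 19234 genes; 11 members and 1685 genes had an unadjusted p under 0.05, and DESeq2 called 0 members and 12 genes. No member's response was thus shown to differ between genotypes. The split in EZH2nHom depended on single libraries and on the samples fitted: it was 15 higher and 7 lower without EZH2nHom kainate replicate 1, 2 and 7 without replicate 4 of that group, and 2 and 6 when fitted on the EZH2nHom libraries alone. With the length and GC correction it was 0 higher and 26 lower in EZH2nHom (31%), against 29% of all genes, with 2454 higher and 3117 lower (median -0.17 for members, -0.08 for all genes). In WT it was then 0 higher and 11 lower (13.1%), against 13% of all genes, with 1511 higher and 984 lower (median -0.16 for members, -0.10 for all genes). The members' share was below that of all genes without the correction and close to it with the correction.

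**Figure D2:**
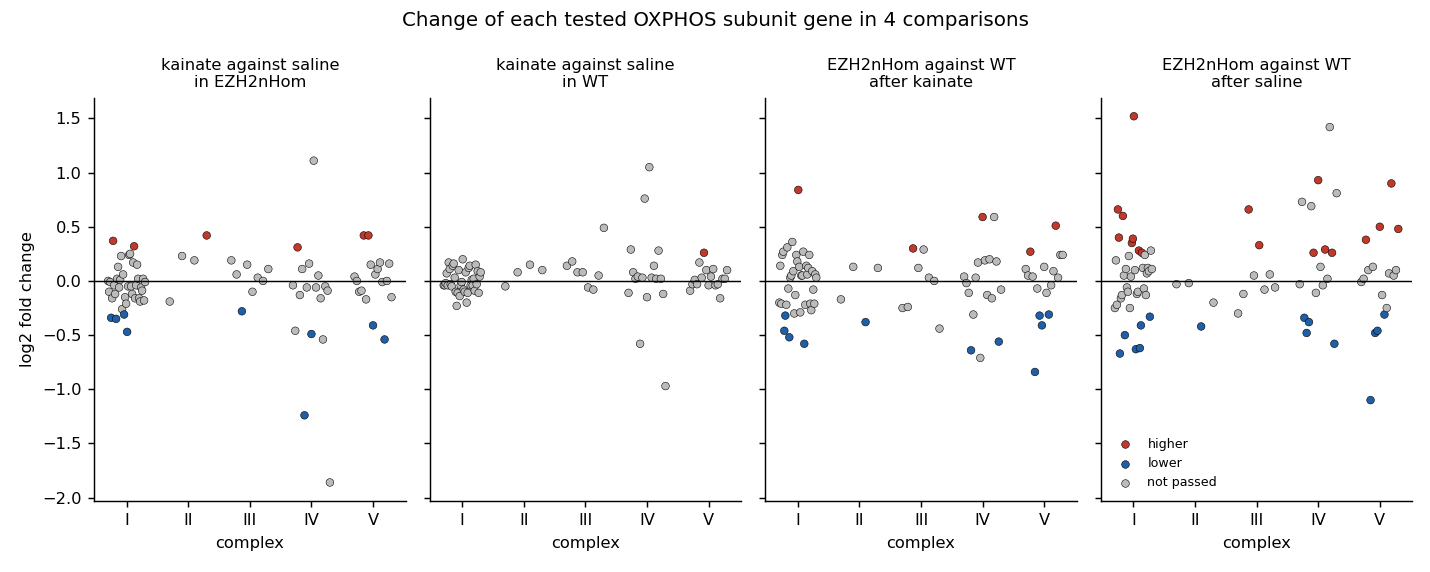
Log2 fold change of each of the 84 tested members, by complex, in the 4 comparisons, with 1 point per gene and colours for members that were higher, lower or did not pass at an adjusted p under 0.05. After saline 18 members lie above and 15 below in EZH2nHom against WT, while kainate against saline in WT has 1 coloured point.

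Cell type markers moved with the kainate groups. The 12 neuron markers summed to 5013 to 6492 CPM in EZH2nHom kainate and 7455 to 8203 CPM in EZH2nHom saline libraries, and 6 of them fell while 0 rose. In WT they summed to 4977 to 7723 CPM after kainate and 7111 to 7661 CPM after saline, and Gad1 alone of the 12 passed, lower after kainate. Markers of microglia, 7 genes, summed to 858 to 1814 CPM in EZH2nHom kainate and 293 to 338 CPM in EZH2nHom saline libraries, and to 633 to 1811 CPM in WT kainate and 348 to 390 CPM in WT saline libraries. In EZH2nHom 6 of the 7 rose and in WT all 7 rose, and 4 of 7 astrocyte markers rose in each genotype. Between genotypes the red blood cell markers stood out: all 5 were lower in EZH2nHom after kainate and none passed after saline, and all 5 rose after kainate in WT. They summed to 103 to 434 CPM in EZH2nHom kainate and 158 to 400 CPM in EZH2nHom saline libraries, against 552 to 1974 CPM in WT kainate and 258 to 770 CPM in WT saline libraries. After saline Thy1 of the 12 neuron markers was higher in EZH2nHom, Slc1a2 of the 7 astrocyte markers was lower, and 0 of the 7 microglia markers passed. The part of these cell types in the changes of the members was not tested. In these bulk samples fewer cells of a type and less RNA per cell cannot be told apart.

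Complex I takes electrons from NADH at the flavin of Ndufv1, passes them through iron-sulfur clusters in Ndufs1, and reduces ubiquinone next to Ndufs7. Ndufs1 had 136, 175, 159 and 126 CPM in EZH2nHom kainate and 190.2, 161, 168, 162 and 153 CPM in EZH2nHom saline libraries. WT libraries had 135, 132, 124, 135 and 149 CPM of Ndufs1 after kainate and 145, 135, 134, 141 and 140.3 CPM after saline. Ndufs1 was slightly higher in EZH2nHom after saline, where the ranges did not overlap, with a log2 difference of 0.26 ± 0.08 (edgeR adjusted p = 0.0442). That call was lost in 23 of 31 other settings, with an adjusted p of up to 0.204.

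For Ndufv1 the EZH2nHom libraries had 69.99, 108, 102 and 78.9 CPM after kainate and 85.4, 79.7, 91.2, 100.1 and 87.7 CPM after saline. In WT, Ndufv1 had 101, 105, 98.8, 93.7 and 121 CPM after kainate and 113, 111, 103, 113 and 118 CPM after saline. Ndufv1 moved the other way, with a log2 difference of -0.33 ± 0.10 (edgeR adjusted p = 0.041) after saline and ranges that did not overlap. That call was lost in 8 of 31 other settings, with an adjusted p of up to 0.11, under the length and GC correction. Ndufs7 had 22.1, 28, 27.4 and 28.4 CPM in EZH2nHom kainate and 23.2, 25.8, 25.2, 33.8 and 29.96 CPM in EZH2nHom saline libraries. WT libraries had 23.8, 25.6, 23.2, 21.8 and 30.1 CPM of Ndufs7 after kainate and 24.8, 23.9, 24.4, 25.9 and 28.2 CPM after saline. The groups overlapped, and Ndufs7 passed in no comparison, with log2 changes of -0.06 to 0.12.

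Among the accessory subunits of complex I, Ndufa12, which sits at the junction of the NADH-oxidising and quinone-reducing parts, was the protein-coding complex I member with the smallest p between genotypes after saline. For Ndufa12 the EZH2nHom libraries had 85.2, 85.5, 84.5 and 80.9 CPM after kainate and 118, 113, 94.7, 109 and 97.5 CPM after saline. In WT, Ndufa12 had 70.6, 64.7, 73.1, 65.8 and 80.7 CPM after kainate and 70.3, 63.5, 66.1, 67.4 and 70.7 CPM after saline. EZH2nHom saline libraries were above all others, and EZH2nHom kainate libraries lay between them and the WT libraries. The log2 difference after saline was 0.66 ± 0.07 (edgeR adjusted p = 1.36e-05), and after kainate, where the ranges also did not overlap, 0.24 ± 0.08 (edgeR adjusted p = 0.0626). Kainate against saline gave -0.34 ± 0.08 (edgeR adjusted p = 0.00342) in EZH2nHom and 0.07 ± 0.07 (edgeR adjusted p = 0.613) in WT. The difference of these responses was -0.41 ± 0.11, which did not pass (edgeR adjusted p = 0.428). Among the 32-base words of Ndufa12 transcripts, 20.5% are also in other gene models, most in a processed pseudogene, so these values are less certain.

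Ndufc1 had 17.6, 12.1, 19.1 and 20.8 CPM in EZH2nHom kainate and 17.8, 14.3, 15.2, 15.2 and 15.1 CPM in EZH2nHom saline libraries. WT libraries had 26.5, 23.9, 29.9, 23.6 and 26.6 CPM of Ndufc1 after kainate and 26.6, 20.7, 24.1, 25.3 and 22.9 CPM after saline. Ndufc1, a small membrane-arm subunit, was lower in EZH2nHom, with log2 differences of -0.62 ± 0.12 (edgeR adjusted p = 0.00165) after saline and -0.58 ± 0.13 (edgeR adjusted p = 0.0113) after kainate. The ranges of the genotypes did not overlap under either treatment.

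Ndufb4c had the largest log2 difference of the members that passed, but it is annotated as a processed pseudogene, and all of its 32-base words are also in the transcripts of Ndufb4, so its reads cannot be assigned with certainty. For Ndufb4c the EZH2nHom libraries had 8.64, 8.7, 10.1 and 9.58 CPM after kainate and 12.9, 12.5, 11.5, 14.6 and 12.8 CPM after saline. In WT, Ndufb4c had 5.54, 5.98, 5.48, 4.04 and 4.69 CPM after kainate and 4.38, 3.67, 4.23, 4.55 and 5.6 CPM after saline. It was higher in EZH2nHom by 1.52 ± 0.13 (edgeR adjusted p = 9.19e-07) after saline and by 0.84 ± 0.13 (edgeR adjusted p = 0.00167) after kainate. Ndufb4 itself, with 45.1 to 60.1 CPM in EZH2nHom saline and 37.3 to 41.5 CPM in WT saline libraries, was higher by 0.39 ± 0.08 (edgeR adjusted p = 0.0031) after saline.

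The other complex I calls after saline were Ndufa5, Ndufa13, Ndufb3 and Ndufb9, which were higher with log2 differences of 0.28 to 0.60, and Ndufa2, Ndufa7, Ndufb6 and Ndufc2, which were lower with log2 differences of -0.67 to -0.41. Of the words of Ndufb6 34.3% are also in the overlapping gene models such as Smim27, and of those of Ndufa13 32.9% are shared, most with Tssk6, so these values are less certain. After kainate Ndufa2, Ndufa3 and Ndufa7 were lower in EZH2nHom, with log2 differences of -0.52 to -0.32. In EZH2nHom kainate against saline, Ndufa2 and Ndufc2 rose and Ndufa5, Ndufb2 and Ndufb4c fell, besides Ndufa12.

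Complex II is the enzyme that joins the tricarboxylic acid cycle to the respiratory chain: Sdha carries the flavin, Sdhb the iron-sulfur clusters, and Sdhc and Sdhd anchor them in the membrane. Sdha had 244, 262, 337 and 251 CPM in EZH2nHom kainate and 322, 311, 307, 321 and 299 CPM in EZH2nHom saline libraries. WT libraries had 315, 306, 279.9, 295 and 339 CPM of Sdha after kainate and 328, 310.5, 305, 324 and 319 CPM after saline. The groups overlapped, with 3 EZH2nHom kainate libraries below all others. For Sdhb the EZH2nHom libraries had 70.97, 92.3, 102 and 100.3 CPM after kainate and 80.2, 75.96, 74.3, 78.2 and 81.02 CPM after saline. In WT, Sdhb had 80.5, 80.01, 84.9, 80.2 and 92.3 CPM after kainate and 83.7, 73.9, 78.4, 80.9 and 77.9 CPM after saline. The 2 catalytic subunits passed in no comparison, with log2 changes of -0.19 to -0.03 for Sdha and -0.02 to 0.23 for Sdhb. Sdhc had 47.1, 37.8, 58.1 and 59.1 CPM in EZH2nHom kainate and 50.5, 42.1, 42.8, 44.05 and 41.6 CPM in EZH2nHom saline libraries. WT libraries had 59.96, 60.6, 64.95, 75.6 and 68.2 CPM of Sdhc after kainate and 62.1, 55.05, 59.1, 63.03 and 56.6 CPM after saline. Sdhc was lower in EZH2nHom, with log2 differences of -0.42 ± 0.10 (edgeR adjusted p = 0.0105) after saline and -0.38 ± 0.11 (edgeR adjusted p = 0.0412) after kainate, and the ranges of the genotypes did not overlap under either treatment. The Sdhc call after kainate was lost in 15 of 31 other settings, with an adjusted p of up to 0.276. For Sdhd the EZH2nHom libraries had 60.97, 95.8, 74.04 and 67.1 CPM after kainate and 61.7, 48.4, 60.9, 57.4 and 50.1 CPM after saline. In WT, Sdhd had 65.8, 66.8, 67.3, 73.8 and 68.7 CPM after kainate and 68.5, 57.7, 61.8, 69.7 and 62.6 CPM after saline. Sdhd rose after kainate in EZH2nHom, with a log2 change of 0.42 ± 0.11 (edgeR adjusted p = 0.00806), although the ranges overlapped. In WT the log2 change of Sdhd was 0.10 ± 0.10 (edgeR adjusted p = 0.623).

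Complex III has the core proteins Uqcrc1 and Uqcrc2 and the Rieske iron-sulfur protein Uqcrfs1 as its nuclear framework. Uqcrc1 had 121, 185, 171 and 156 CPM in EZH2nHom kainate and 131, 138, 135, 155 and 154 CPM in EZH2nHom saline libraries. WT libraries had 138, 137, 140.2, 138 and 175 CPM of Uqcrc1 after kainate and 143, 127, 131, 144 and 146 CPM after saline. The groups overlapped, and EZH2nHom kainate held both the lowest and the highest library of Uqcrc1. For Uqcrfs1 the EZH2nHom libraries had 64.5, 91.4, 79.3 and 65.1 CPM after kainate and 81.97, 66.5, 78.7, 72.8 and 67.3 CPM after saline. In WT, Uqcrfs1 had 74.3, 71.3, 70.8, 72.5 and 78.7 CPM after kainate and 86.04, 69, 75.4, 82.5 and 74.4 CPM after saline. Neither passed in any comparison, with log2 changes of 0.05 to 0.15 and -0.08 to 0.03. Uqcrc2 had 159.9, 230, 194 and 159 CPM in EZH2nHom kainate and 230.3, 191, 205, 189 and 181 CPM in EZH2nHom saline libraries. WT libraries had 149, 155, 142, 146 and 166 CPM of Uqcrc2 after kainate and 174, 151, 146, 167 and 155 CPM after saline. Uqcrc2 was higher in EZH2nHom after saline with no overlap, by 0.33 ± 0.10 (edgeR adjusted p = 0.0283), a call lost in 15 of 31 other settings. Of the words of Uqcrc2 18.5% are shared with other gene models, most with Pdzd9. Uqcrb, a small subunit near the ubiquinone site, showed the larger difference. For Uqcrb the EZH2nHom libraries had 85.2, 89.2, 85.3 and 80.98 CPM after kainate and 128, 105, 100.2, 95.9 and 87.8 CPM after saline. In WT, Uqcrb had 63.4, 62.7, 71.6, 76.2 and 71.02 CPM after kainate and 62.8, 61.96, 68.9, 65.6 and 67.5 CPM after saline. It was higher in EZH2nHom by 0.66 ± 0.09 (edgeR adjusted p = 5.35e-05) after saline and by 0.30 ± 0.09 (edgeR adjusted p = 0.0448) after kainate, and the ranges did not overlap in either comparison. Kainate against saline gave -0.28 ± 0.09 (edgeR adjusted p = 0.0296) in EZH2nHom, with overlapping ranges, and 0.08 ± 0.09 (edgeR adjusted p = 0.632) in WT. The Uqcrb call between genotypes after kainate was lost in 24 of 31 other settings, with an adjusted p of up to 0.247, and the fall after kainate in 16 of 31, with up to 0.179. Of the words of Uqcrb 34.2% are shared with other gene models, mostly a processed pseudogene. The other 4 genes, Uqcr10, Uqcr11, Uqcrh and Uqcrq, passed in no comparison, with log2 changes of -0.44 to 0.49.

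Complex IV is built around catalytic subunits from mitochondrial DNA, and its nuclear subunits regulate and stabilise it. Cox4i1 had 233, 318, 312 and 315 CPM in EZH2nHom kainate and 298, 257, 306, 348 and 304 CPM in EZH2nHom saline libraries. WT libraries had 298, 284, 269, 248 and 334 CPM of Cox4i1 after kainate and 329, 295, 293, 329 and 302 CPM after saline. Cox4i1, which binds ATP as a regulatory subunit, passed in no comparison, with log2 changes of -0.11 to 0.04. For Cox5a the EZH2nHom libraries had 36.8, 48.9, 55.4 and 48.3 CPM after kainate and 42.4, 36.2, 37.1, 37.1 and 37.7 CPM after saline. In WT, Cox5a had 47.5, 48.5, 52.6, 52.7 and 53.8 CPM after kainate and 55.5, 45.4, 45.9, 49.4 and 44.6 CPM after saline. Cox5a was lower in EZH2nHom after saline, with a log2 difference of -0.34 ± 0.09 (edgeR adjusted p = 0.0197), and rose after kainate in EZH2nHom, with a log2 change of 0.31 ± 0.10 (edgeR adjusted p = 0.0234), a call lost in 8 of 31 other settings, with an adjusted p of up to 0.105. All EZH2nHom saline libraries were below all WT saline libraries, and EZH2nHom kainate replicate 1 lay within their range. Cox6c, a small transmembrane subunit, passed in both genotype comparisons. Cox6c had 233, 270.1, 221 and 207 CPM in EZH2nHom kainate and 398, 331, 338, 287 and 281 CPM in EZH2nHom saline libraries. WT libraries had 166, 152, 144, 139.8 and 174 CPM of Cox6c after kainate and 193, 165, 164, 170 and 168 CPM after saline. Every EZH2nHom library was above every WT library. The log2 difference was 0.93 ± 0.10 (edgeR adjusted p = 6.88e-06) after saline and 0.59 ± 0.10 (edgeR adjusted p = 0.00341) after kainate. Kainate against saline gave -0.49 ± 0.10 (edgeR adjusted p = 0.00199) in EZH2nHom, with no overlap, and -0.15 ± 0.10 (edgeR adjusted p = 0.385) in WT.

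For Cox5b the EZH2nHom libraries had 58.2, 72.7, 78.6 and 72.04 CPM after kainate and 82.4, 76.9, 68.9, 74.8 and 82.8 CPM after saline. In WT, Cox5b had 103, 103, 100.1, 107 and 135 CPM after kainate and 109, 101, 106, 109 and 115 CPM after saline. Cox5b, a zinc-binding subunit on the matrix side, was lower in every EZH2nHom library than in every WT library. The log2 differences were -0.48 ± 0.09 (edgeR adjusted p = 0.00143) after saline and -0.64 ± 0.10 (edgeR adjusted p = 0.00138) after kainate. Cox8a had 85.3, 112, 128 and 110.2 CPM in EZH2nHom kainate and 123, 104, 112, 114 and 126 CPM in EZH2nHom saline libraries. WT libraries had 171, 156, 155, 128 and 190.1 CPM of Cox8a after kainate and 182, 159, 179.5, 179 and 169 CPM after saline. Cox8a, a very small transmembrane subunit, was lower in EZH2nHom, with log2 differences of -0.58 ± 0.10 (edgeR adjusted p = 0.00102) after saline and -0.56 ± 0.11 (edgeR adjusted p = 0.0076) after kainate. Its genotype ranges did not overlap under either treatment, and the kainate changes were -0.09 ± 0.11 (edgeR adjusted p = 0.583) and -0.12 ± 0.10 (edgeR adjusted p = 0.531) in EZH2nHom and WT.

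Of the other widely expressed complex IV genes, Cox6a1 was lower after saline in EZH2nHom, and Cox6b1, Cox7c and Cox7a2l, the supercomplex factor also called Scaf1, were higher with log2 differences of 0.26 to 0.29. For Cox6a1 the EZH2nHom libraries had 78.5, 96.8, 98.2 and 104 CPM after kainate and 79.3, 80.1, 78.9, 96.2 and 102 CPM after saline. In WT, Cox6a1 had 115, 113, 121, 92.5 and 144 CPM after kainate and 116, 105, 114, 114 and 118 CPM after saline. All EZH2nHom saline libraries were below all WT saline libraries. Cox6b1 had 147, 164, 177 and 168 CPM in EZH2nHom kainate and 192, 161, 183, 159.8 and 159 CPM in EZH2nHom saline libraries. WT libraries had 149.6, 141, 137, 136 and 164 CPM of Cox6b1 after kainate and 155, 125, 143, 149.7 and 139 CPM after saline. The Cox6a1 difference was -0.38 ± 0.11 (edgeR adjusted p = 0.0235), and that of Cox6b1, 0.26 ± 0.08 (edgeR adjusted p = 0.0342), did not hold with the length and GC correction (edgeR adjusted p = 0.598).

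**Figure D3:**
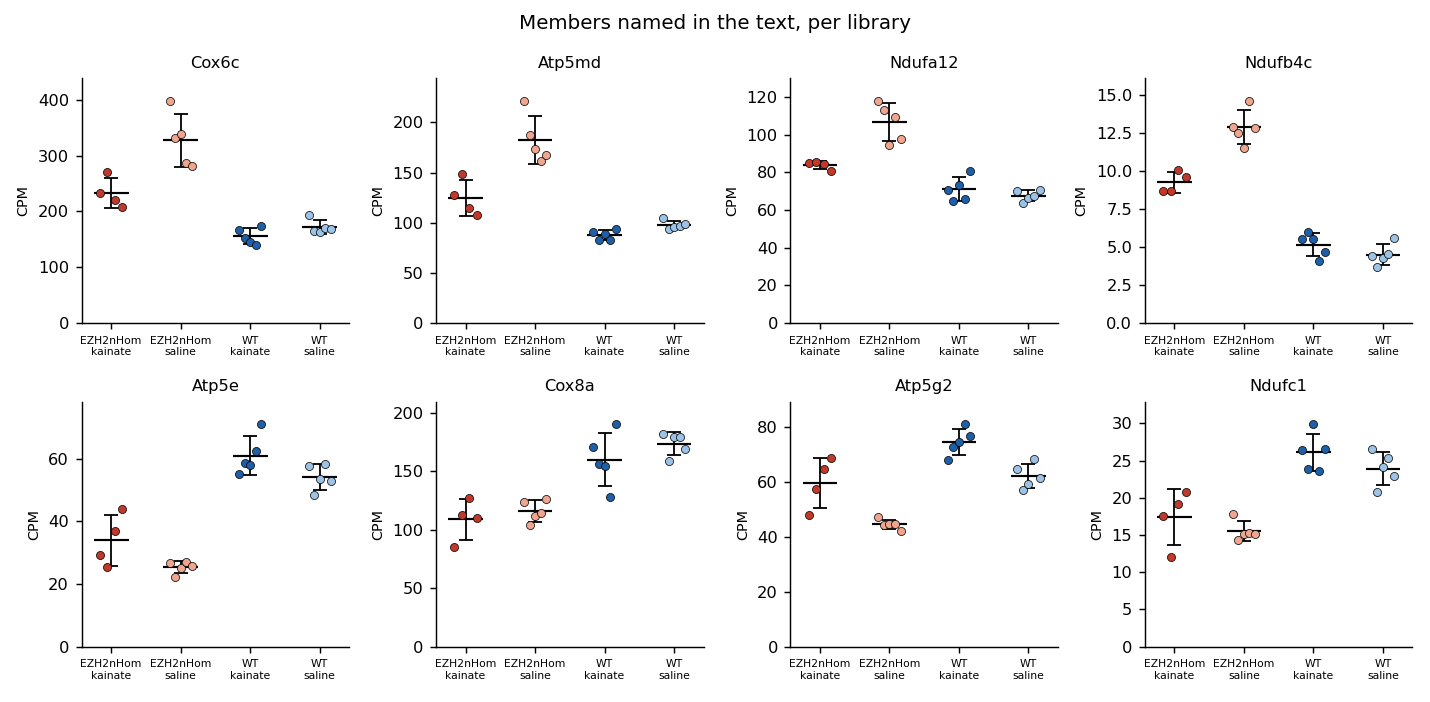
CPM per library of Cox6c, Atp5md, Ndufa12, Ndufb4c, Atp5e, Cox8a, Atp5g2 and Ndufc1, with a line at the mean and bars of 1 SD, in EZH2nHom kainate (4 libraries), EZH2nHom saline, WT kainate and WT saline (5 each). Cox6c and Atp5md are above WT in every EZH2nHom library, and Atp5e and Cox8a are below their treatment-matched WT libraries.

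Complex V couples the proton channel in the membrane to the catalytic F1 head. The head's alpha and beta subunits are encoded by Atp5a1 and Atp5b, the members with the highest CPM. For Atp5a1 the EZH2nHom libraries had 581, 948, 785 and 629 CPM after kainate and 759, 637, 714, 769 and 701 CPM after saline. In WT, Atp5a1 had 694, 669.8, 635, 632 and 773 CPM after kainate and 768, 692, 682, 755 and 718 CPM after saline. The groups overlapped, and EZH2nHom kainate held both the lowest and the highest library of Atp5a1. Atp5b had 774, 1131, 953 and 832 CPM in EZH2nHom kainate and 982, 919, 892, 939 and 872 CPM in EZH2nHom saline libraries. WT libraries had 868, 841, 874, 873 and 1004 CPM of Atp5b after kainate and 916, 879, 888, 920 and 936 CPM after saline. Neither passed in any comparison, with log2 changes of -0.09 to 0.11 for Atp5a1 and -0.03 to 0.05 for Atp5b. Of the central stalk, Atp5c1, the gamma subunit, was higher in EZH2nHom, Atp5e, the epsilon subunit, was lower, and Atp5d, the delta subunit, did not pass, with log2 differences of 0.10 ± 0.10 after saline (edgeR adjusted p = 0.595) and 0.04 ± 0.11 after kainate (edgeR adjusted p = 0.849). For Atp5e the EZH2nHom libraries had 29.3, 25.5, 37 and 43.9 CPM after kainate and 26.7, 22.1, 25.1, 27.1 and 25.7 CPM after saline. In WT, Atp5e had 55, 58.5, 57.9, 62.3 and 70.9 CPM after kainate and 57.7, 48.4, 53.3, 58.4 and 52.9 CPM after saline. Every EZH2nHom library was below every WT library, and the log2 difference of Atp5e was -1.10 ± 0.12 (edgeR adjusted p = 7.42e-06) after saline and -0.84 ± 0.12 (edgeR adjusted p = 0.0013) after kainate. Atp5e rose after kainate in EZH2nHom by 0.42 ± 0.12 (edgeR adjusted p = 0.0162), with overlapping ranges, and the change in WT was 0.17 ± 0.12 (edgeR adjusted p = 0.397). For Atp5c1 the log2 differences were 0.38 ± 0.07 (edgeR adjusted p = 0.00147) after saline and 0.27 ± 0.08 (edgeR adjusted p = 0.0371) after kainate.

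Atp5md, also called DAPIT or USMG5, a small membrane subunit at the interface of ATP synthase dimers, had the largest fall after kainate in EZH2nHom of the members above 10 CPM. Atp5md had 128, 149, 115 and 108 CPM in EZH2nHom kainate and 222, 188, 173, 162 and 167 CPM in EZH2nHom saline libraries. WT libraries had 90.5, 82.6, 88.6, 82.9 and 93.7 CPM of Atp5md after kainate and 104, 93.3, 95.5, 96.4 and 98.5 CPM after saline. EZH2nHom libraries were above all WT libraries, and the kainate libraries of EZH2nHom lay below its saline libraries. The log2 difference between genotypes was 0.90 ± 0.09 (edgeR adjusted p = 4.6e-06) after saline and 0.51 ± 0.10 (edgeR adjusted p = 0.00493) after kainate. Kainate against saline gave -0.54 ± 0.10 (edgeR adjusted p = 0.000485) in EZH2nHom and -0.16 ± 0.09 (edgeR adjusted p = 0.317) in WT, and the difference of the responses, -0.39 ± 0.13, did not pass (edgeR adjusted p = 0.465).

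For Atp5h the EZH2nHom libraries had 166, 170.4, 162 and 149 CPM after kainate and 246, 209, 209, 209 and 201 CPM after saline. In WT, Atp5h had 153, 145, 144, 139 and 157 CPM after kainate and 161, 144, 146, 159 and 147 CPM after saline. Atp5h, the d subunit of the peripheral stalk, fell after kainate in EZH2nHom, with a log2 change of -0.41 ± 0.07 (edgeR adjusted p = 0.000433), and was higher in EZH2nHom after saline by 0.50 ± 0.07 (edgeR adjusted p = 7.13e-05), both with no overlap. After kainate the genotypes differed by 0.13 ± 0.07 (edgeR adjusted p = 0.27), and in WT the kainate change was -0.04 ± 0.07 (edgeR adjusted p = 0.792). These comparisons share the EZH2nHom saline libraries, which were above all others. Of the words of Atp5h 25.1% are shared with other gene models, most with a processed pseudogene. Atp5pb, the b subunit of the same stalk, was also higher after saline, by 0.48 ± 0.08 (edgeR adjusted p = 0.000357).

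The rotating c-ring is made of identical subunits encoded by Atp5g1, Atp5g2 and Atp5g3, which differ in the part that is cut off on import. Atp5g2 had 48.1, 57.4, 64.6 and 68.6 CPM in EZH2nHom kainate and 47.04, 44.2, 44.6, 44.7 and 42.1 CPM in EZH2nHom saline libraries. WT libraries had 67.9, 72.9, 74.4, 80.97 and 76.7 CPM of Atp5g2 after kainate and 64.9, 57.1, 59.3, 68.3 and 61.5 CPM after saline. Atp5g2 was the member that rose after kainate in WT, with a log2 change of 0.26 ± 0.08 (edgeR adjusted p = 0.0469), and it also rose in EZH2nHom, by 0.42 ± 0.09 (edgeR adjusted p = 0.00174). The WT call is marginal: the ranges overlapped, and it was lost in 22 of 32 other settings, with an adjusted p of up to 0.501. Atp5g2 was lower in EZH2nHom, with log2 differences of -0.48 ± 0.08 (edgeR adjusted p = 0.000784) after saline and -0.32 ± 0.09 (edgeR adjusted p = 0.034) after kainate, and the call after kainate was lost in 11 of 31 other settings, with an adjusted p of up to 0.261. Of its words 40.1% are shared with other gene models, most with a transcribed processed pseudogene. Atp5g3 was lower in EZH2nHom as well, with log2 differences of -0.46 ± 0.09 (edgeR adjusted p = 0.00227) after saline and -0.41 ± 0.10 (edgeR adjusted p = 0.0172) after kainate, and Atp5g1 passed in no comparison, with log2 changes of -0.17 to 0.13. Atp5j2, the f subunit of the membrane part, was lower in EZH2nHom under both treatments, with a log2 difference of -0.31 in each.

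Levels are given here per kb of exon, counted over all annotated exons of a gene. This length can exceed that of the main transcript, and was 4237 bases for Atp5b, 708 for Cox6b1 and 619 for Cox8a. The order of genes therefore also depends on the annotation. In EZH2nHom saline libraries Cox6b1 had the highest mean, 241 CPM per kb of exon, followed by Atp5a1 at 228, Atp5b at 217, Cox4i1 at 195 and Cox8a at 187 CPM per kb. In WT saline libraries Cox8a came first at 280.7 CPM per kb, followed by Atp5a1 at 230.6, Atp5b at 214, Cox6b1 at 201 and Cox4i1 at 199.8 CPM per kb.

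Several complex IV subunits have a second gene of restricted expression, known from muscle, heart, lung or testis, beside the widely expressed one. All of these were under 5 CPM in every library. In WT saline libraries the means per kb of exon were 0.645 CPM for Cox4i2 against 199.8 for Cox4i1, 1.51 for Cox6a2 against 162 for Cox6a1, and 1.02 for Cox6b2 against 201 for Cox6b1. They were 2.21 for Cox7a1 against 121 for Cox7a2, 0.282 for Cox7b2 against 91.8 for Cox7b, and 1.17 for Cox8b against 280.7 CPM per kb for Cox8a.

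Cox6a2, the muscle isoform that in brain is known from parvalbumin interneurons, was the restricted isoform that passed. For Cox6a2 the EZH2nHom libraries had 0.477, 0.697, 0.67 and 0.967 CPM after kainate and 1.25, 1.49, 1.16, 2.01 and 2.41 CPM after saline. In WT, Cox6a2 had 0.608, 0.443, 0.907, 0.667 and 0.826 CPM after kainate and 1.16, 1.07, 0.929, 0.781 and 1.21 CPM after saline. It fell after kainate in EZH2nHom, with a log2 change of -1.24 ± 0.28 (edgeR adjusted p = 0.00278) and no overlap. Its reads numbered 16 to 81 per library. In WT the change was -0.58 ± 0.26 (edgeR adjusted p = 0.178), and the difference of the responses, -0.67 ± 0.38, did not pass (edgeR adjusted p = 0.631). The 6 parvalbumin interneuron markers summed to 176 to 234 CPM in EZH2nHom kainate and 274 to 339 CPM in EZH2nHom saline libraries, and Erbb4, Kcnc2 and Pvalb fell. In WT they summed to 197 to 360 CPM after kainate and 348 to 390 CPM after saline, and Erbb4 fell. Between genotypes, Kcnc1 was lower in EZH2nHom after saline and Kcnc2 after kainate. Cox6a2 passed in neither of these, with log2 differences of 0.69 ± 0.25 after saline (edgeR adjusted p = 0.0762) and 0.03 ± 0.28 after kainate (edgeR adjusted p = 0.97). The part of these markers in the change of Cox6a2 was not tested.

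Cox7a1 had 2.26, 0.917, 3.1 and 4.83 CPM in EZH2nHom kainate and 1.98, 0.621, 1.48, 1.92 and 0.416 CPM in EZH2nHom saline libraries. WT libraries had 1.76, 1.77, 3.41, 3.41 and 1.94 CPM of Cox7a1 after kainate and 1.45, 0.612, 1.69, 1.64 and 0.519 CPM after saline. Cox7a1, known from heart and skeletal muscle, did not pass, at 1.11 ± 0.48 (edgeR adjusted p = 0.0944) in EZH2nHom and 1.05 ± 0.46 (edgeR adjusted p = 0.161) in WT, where the ranges did not overlap.

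For Cox8b the EZH2nHom libraries had 0.0502, 0.11, 0.346 and 0.293 CPM after kainate and 1.62, 0.29, 0.8, 0.913 and 0.0595 CPM after saline. In WT, Cox8b had 0.48, 0.166, 0.145, 0.118 and 0.16 CPM after kainate and 0.29, 0.0306, 0.86, 0.916 and 0 CPM after saline. Cox8b passed in no comparison, its groups overlapped, and its reads were 0 to 60 per library. The summed level of 5 choroid plexus and ependyma markers, led by Ttr, ranged from 19.5 to 3861 CPM over the libraries and varied within every group. In the 9 libraries with over 400 CPM of these markers Cox8b had a median of 0.8 CPM (0.145 to 1.62), and in the other 10 a median of 0.114 CPM (0 to 0.293). The ranges on the sides of this chosen limit overlapped, and the part of these tissues in the reads of Cox8b was not tested.

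Cox6b2 had 1.005, 0.66, 1.06 and 1.99 CPM in EZH2nHom kainate and 1.22, 0.414, 1.39, 1.58 and 0.624 CPM in EZH2nHom saline libraries. WT libraries had 2.11, 1.99, 1.96, 1.65 and 1.97 CPM of Cox6b2 after kainate and 0.516, 0.795, 1.51, 2.15 and 0.692 CPM after saline. The WT kainate libraries lay close together, within the range of the WT saline libraries. For Cox4i2 the EZH2nHom libraries had 0.703, 0.147, 0.831 and 0.732 CPM after kainate and 0.65, 0.786, 0.741, 1.37 and 0.684 CPM after saline. In WT, Cox4i2 had 0.672, 0.664, 0.617, 0.51 and 0.639 CPM after kainate and 0.612, 0.336, 0.413, 0.593 and 0.588 CPM after saline. All EZH2nHom saline libraries were above all WT saline libraries of Cox4i2, and the other comparisons overlapped. Cox7b2 had 0.0753, 0.477, 0.254 and 0.352 CPM in EZH2nHom kainate and 1.3, 0.207, 0.267, 0.122 and 0.119 CPM in EZH2nHom saline libraries. WT libraries had 0.128, 0.083, 0.109, 0.549 and 0.106 CPM of Cox7b2 after kainate and 0.129, 0.183, 0.172, 0.108 and 0.173 CPM after saline. Cox6b2, Cox4i2 and Cox7b2 passed in no comparison. EZH2nHom saline replicate 1 held 48 of the 161 reads of Cox7b2.

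The widely expressed partners not yet described are Cox7a2 and Cox7b. For Cox7a2 the EZH2nHom libraries had 97.9, 122, 106 and 99.5 CPM after kainate and 135, 114, 109, 98.6 and 98.7 CPM after saline. In WT, Cox7a2 had 117, 114, 112, 108 and 129.6 CPM after kainate and 122, 108, 109, 121 and 110.1 CPM after saline. The groups overlapped throughout. Cox7b had 90.9, 114, 106 and 93.2 CPM in EZH2nHom kainate and 142, 121, 117, 91.3 and 94.99 CPM in EZH2nHom saline libraries. WT libraries had 114, 113, 104, 110 and 123 CPM of Cox7b after kainate and 119, 104, 105, 117 and 112 CPM after saline. Both passed in no comparison, with log2 changes of -0.13 to 0.03 for Cox7a2 and -0.16 to 0.02 for Cox7b. Cox8c, the testis isoform of Cox8a, had 0 reads in the table.

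**Figure D4:**
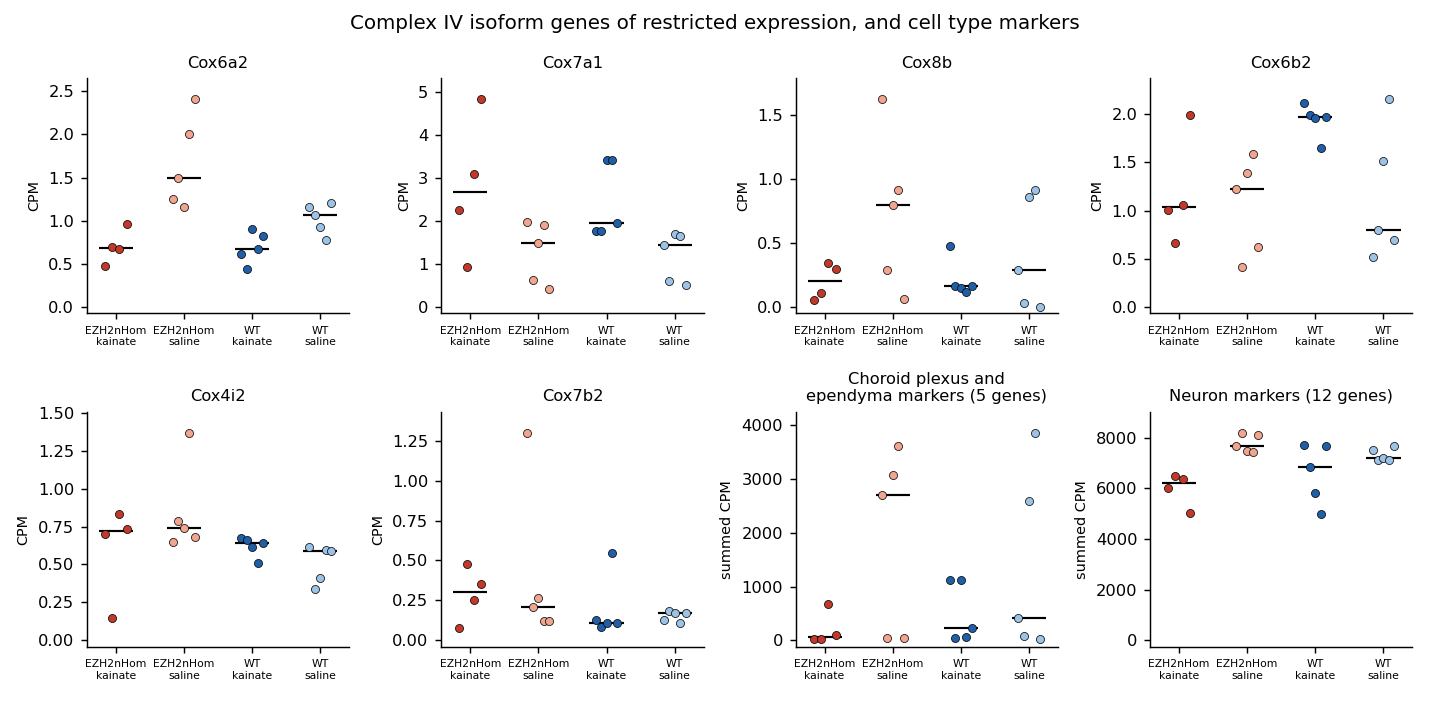
CPM per library of 6 complex IV isoform genes of restricted expression and summed CPM of choroid plexus and ependyma markers (5 genes) and neuron markers (12 genes), with a line at the median, in EZH2nHom kainate (4 libraries), EZH2nHom saline, WT kainate and WT saline (5 each). Cox6a2 is lower after kainate in EZH2nHom, and the choroid plexus markers spread from 19.5 to 3861 CPM within and between groups.

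Other mitochondrial genes were counted in the same fit, where 13.5% of all genes passed between genotypes after saline, 26.1% after kainate in EZH2nHom and 12% after kainate in WT. The 13 respiratory chain genes of mitochondrial DNA summed to 34775 to 47264 CPM in EZH2nHom saline libraries, against 23946 to 26642 CPM in WT saline libraries, with 6 higher and 2 lower and a median log2 difference of 0.38, against 0.02 for all genes. The highest of these differences was in mt-Nd1, 1.14 ± 0.13 on the log2 scale (edgeR adjusted p = 1.13e-05), and the lowest in mt-Co2, -2.96 ± 0.46 (edgeR adjusted p = 0.000341). After kainate against saline 6 of the 13 fell and 0 rose in EZH2nHom, with mt-Cytb at -0.60 ± 0.10 (edgeR adjusted p = 0.000319), and in WT 0 passed in either direction. Of 47 tested assembly factors, which build the complexes, 5 were higher and 3 lower in EZH2nHom after saline (17%), and 0 rose and 3 fell after kainate in EZH2nHom (6.38%).

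Of 24 regulators of mitochondrial biogenesis, Gabpa and Tfb2m were higher and Sirt3 lower in EZH2nHom after saline (12.5%, against 13.5% of all genes). The share was thus no higher than that of all genes. Their log2 differences were 0.40 ± 0.11, 0.31 ± 0.10 and -0.46 ± 0.12, in that order. Gabpa encodes the DNA-binding part of the factor whose motif is shown above, and a link to the members was not tested. After kainate Ppard rose in EZH2nHom (4.17%, against 26.1% of all genes) and 0 of the 24 passed in WT. Of 78 mitochondrial ribosomal protein genes, 24 were higher and 3 lower in EZH2nHom after saline (34.6%), 51 did not pass, and the median log2 difference was 0.15. After kainate in EZH2nHom 2 of them rose and 14 fell (20.5%). Tricarboxylic acid cycle genes had 6 higher and 0 lower of 22 after saline in EZH2nHom (27.3%), and 0 rose and 4 fell after kainate in EZH2nHom (18.2%). Genes of the cytosolic ribosome had 16 higher and 19 lower of 83 in EZH2nHom after saline (42.2%). After kainate in EZH2nHom 44 of them rose and 0 fell (53%), with a median log2 change of 0.32, against -0.02 for all genes. Glycolysis genes showed 6 higher and 2 lower of 23 after kainate in EZH2nHom (34.8%) and 5 higher and 0 lower in WT (21.7%); Hk2, the inducible hexokinase, rose by 2.03 ± 0.24 in EZH2nHom and 1.64 ± 0.23 in WT on the log2 scale.

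Transcript length and base composition moved with the comparisons. Length was counted over all annotated exons of a gene. Members had a median of 1522 bases of exon, against 5205 bases for genes averaging at least 10 CPM. Their median GC content was 50.3%, against 48.9%. Across 9834 genes averaging at least 10 CPM, Spearman's rho of the log2 difference between genotypes after saline with GC content was -0.32, and with exon length -0.18. Across the 77 members at that level it was -0.20 with GC content, the same sign as across all these genes. With exon length it was 0.23 across the members, the opposite sign. For kainate against saline rho with exon length was -0.12 in EZH2nHom and -0.21 in WT across all these genes, and -0.09 and -0.12 across the members. These are correlations across genes that share the same libraries, and genes are not independent replicates. Among the members, those higher after saline in EZH2nHom had a median GC content of 48.3% and shared a median of 17.3% of their words with other gene models. Those lower had 49.4% and 3.51%, and those that did not pass 52.4% and 2.74%. Over 10% of words were shared in 34 of the 87 members, also in some where this is not stated above. The part of length, composition and shared sequence in the differences was not tested beyond the correction given above. Of the members given per library, the calls between genotypes after saline of Cox6b1 (edgeR adjusted p = 0.598), Uqcrc2 (0.333), Ndufs1 (0.128) and Ndufv1 (0.11) were lost with that correction, and those of Atp5e, Atp5g2, Atp5h, Atp5md, Cox5a, Cox5b, Cox6a1, Cox6c, Cox8a, Ndufa12, Ndufb4c, Ndufc1, Sdhc and Uqcrb stayed, in the same direction.

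**Figure D5:**
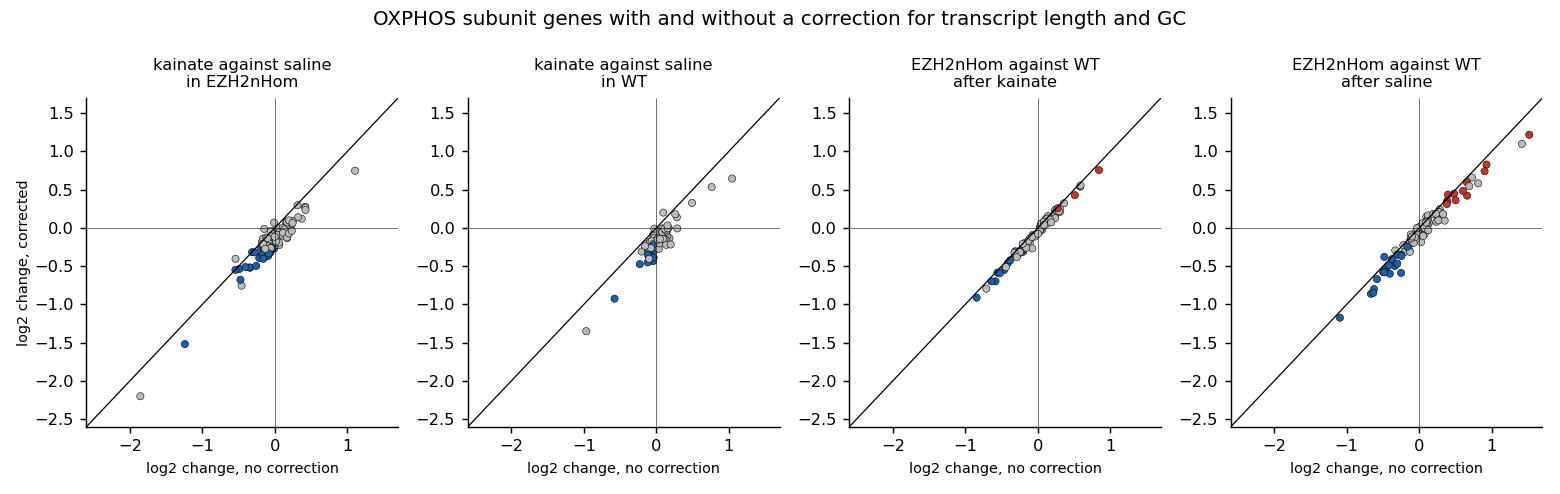
Log2 change of each tested member without (x axis) and with (y axis) a correction for transcript length and GC content, in the 4 comparisons, with 1 point per gene, a line of equality, and colours for members that passed after the correction, red higher and blue lower. For kainate against saline most points lie below the line, and 0 of 84 members are higher after correction; between genotypes after saline 11 are higher and 19 lower.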

How the data were processed

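Gene counts of 19 hippocampal libraries were used as the authors deposited them, as raw read counts per Ensembl gene, 1 column per library. Build mm39, DESeq2 and DESeq are named in the submitters' processing notes; aligner, counting program, annotation release and strand setting are not given in the sources used here, so overlapping and antisense genes and copies could share reads. Symbols came from the authors' deposited annotation for 32313 genes and from a reference table for 20022. Counts were fitted with edgeR 4.0.16 in R 4.3.3 (filterByExpr by group, TMM, robust quasi-likelihood, 1 mean per group over all 19 libraries, two-sided, Benjamini-Hochberg over 19234 genes, threshold 0.05). The values after ± beside log2 changes are approximate standard errors. They are the absolute log2 change divided by the square root of the F of the same test, so they add nothing independent of its p-value. The script was tested on simulated data. Totals of 24496685 to 43948317 reads set the precision. Exon lengths, GC content and 32-base words came from GENCODE vM21 transcripts (GRCm38), matched by gene ID, with no coordinates converted; promoters came from RefSeq.

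Members and gene lists were chosen with earlier results of these data known. Values per library are given for core subunits, for restricted isoforms with their partners, and for the 2 members of each complex and comparison with the smallest p among those that passed; some genes that the rule or the marker lists name are not reported here. Alternatives were DESeq2 1.42.0, other size factors, other filters, fits on fewer groups, a replicate block, a length and GC offset (mgcv 1.9.3), covariates, a threshold of 0.01, and leaving out each library. A covariate for choroid plexus markers was added after the data were seen. Titles number the EZH2nHom kainate libraries 1 to 4, and those numbers were used.

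Replicate numbers recur across groups. In WT, the deviations of kainate and saline libraries with the same number correlated at 0.125 to 0.447, over 0.1 for every number. By that limit alone the numbers were taken to pair the libraries in WT. Not all WT libraries correlated best with their own number, which failed for numbers 3 and 4. Among WT libraries of the same number, only those numbered 2 shared a code prefix between kainate and saline. Libraries of different numbers shared prefixes as well: kainate 1 with saline 4, and kainate 3 and 4 with saline 2. No pairing is given by the labels, so it remains uncertain, and the replicate block was used only among the alternatives. With the block 2 members passed in WT, against 1 without. Reads of sex-linked genes pointed to 1 of 4 EZH2nHom kainate, 0 of 5 EZH2nHom saline, 2 of 5 WT kainate and 2 of 5 WT saline libraries from females, and a covariate for these reads was among the alternatives.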

Additional observations from a re-analysis of the deposited data

Results flagged for a closer look

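In 16 of 164 groups of libraries tested, 1 library stood farther from the others than Dixon's 95% limit, which chance gives in about 1 of 20 groups. No cause was tested.

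EZH2nHom kainate replicate 1 was low for Cox4i1, at 233 CPM against 312 to 318 in the others of its group, and for Ndufs7, at 22.1 CPM against 27.4 to 28.4. EZH2nHom saline replicate 1 was high for Atp5h (246 CPM, others 201 to 209), Cox5a (42.4, others 36.2 to 37.7), Ndufc1 (17.8, others 14.3 to 15.2), Sdhc (50.5, others 41.6 to 44) and Cox7b2 (1.3, others 0.119 to 0.267). Cox4i2 was high in EZH2nHom saline replicate 4, at 1.37 CPM against 0.65 to 0.786.

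WT kainate replicate 5 was high for Atp5b (1004 CPM, others 841 to 875), Cox5b (135, others 100 to 107) and Uqcrc1 (175, others 137 to 140), and for the sums of complex III (799, others 690 to 711) and complex V (3451, others 3000 to 3094). Cox7b2 was high in WT kainate replicate 4 (0.549, others 0.083 to 0.128) and Cox8b in WT kainate replicate 1 (0.48, others 0.118 to 0.166). Cox6c was high in WT saline replicate 1, at 193 CPM against 164 to 170.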

How the results depend on the processing

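Over all named members and alternatives 0 calls turned direction. The count of members that differed between genotypes after saline, 33, was 26 to 43 over all alternatives that kept the threshold and 22 at 0.01. For EZH2nHom against WT after kainate, 16, it was 10 with no filter on low counts, 10 with the length and GC offset and replicate block, 0 with only the groups compared and 6 at a threshold of 0.01; leaving out 1 library gave 11 to 19. For kainate in EZH2nHom, 15, it was 26 with the length and GC offset, 23 with that offset and the block, 8 with only the groups compared and 7 at 0.01; leaving out 1 library gave 9 to 22. For kainate in WT, 1, it was 0 with DESeq2 size factors, upper-quartile factors, no filter, a filter of mean 1 CPM, the shared code prefixes as a block (6 libraries, 0 genes called) or a threshold of 0.01, 2 with only the groups compared or the replicate block, 3 with the choroid plexus covariate, 11 with the length and GC offset and 10 with that offset and the block; leaving out 1 library gave 0 to 1. The difference of the responses stayed at 0 members. Over all genes, counts that moved were 4 with only the groups compared, 486 with the length and GC offset and block, 735 with the block, 959 with no filter and 2188 with DESeq2 for the genotypes after kainate (1463), 5604 with only the groups compared for the genotypes after saline (2596), and 3066 with only the groups compared for kainate in EZH2nHom (5012). Leaving out 1 library gave 670 to 2193 genes for the genotypes after kainate, 1675 to 4295 after saline, 3864 to 6096 for kainate in EZH2nHom and 1365 to 3414 in WT (2316); the extremes came without WT kainate replicate 2 and 4, WT saline replicate 3 and EZH2nHom kainate replicate 2, EZH2nHom kainate replicate 4 and 2, and WT kainate replicate 4 and EZH2nHom kainate replicate 2, in that order. DESeq2 called 11 members higher and 11 lower for the genotypes after kainate, against 5 and 11. The cause of these shifts was not tested. Of 40 named calls 16 held under every alternative. In the fits on fewer samples, fewer libraries estimate the spread.

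Outside WT the replicate numbers were not taken to pair the libraries, since not every correlation was over 0.1: they were -0.036 to 0.12 for kainate with saline in EZH2nHom, -0.13 to 0.5 between genotypes after kainate, and 0.048, 0.215, 0.306, 0.334 and 0.475 between genotypes after saline. Not every library correlated best with its own number in any of these, nor in WT. A replicate block gave 11 members for kainate in EZH2nHom, 12 and 31 for the genotypes after kainate and saline, and 0 for the difference of the responses. Depth limits the isoforms under 5 CPM.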

Other observations

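Genes that carry electrons between complexes and shape the cristae, 21 tested, had 6 higher and 1 lower in EZH2nHom saline against WT saline libraries, with a median log2 difference of 0.10 (33.3% passed, against 13.5% of all genes). Immt, a scaffold of the cristae junction, was higher by 0.42 ± 0.07 on the log2 scale (edgeR adjusted p = 0.000389), and Cycs, cytochrome c, by 0.33 ± 0.07 (edgeR adjusted p = 0.00232). After kainate in EZH2nHom 1 of the 21 rose and 3 fell (19%, against 26.1% of all genes), among them Cycs with a log2 change of -0.21 ± 0.07 (edgeR adjusted p = 0.0332), and in WT 0 passed.

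Of 11 tested genes of uncoupling, creatine shuttling and antioxidant defence, 1 rose and 2 fell after kainate in EZH2nHom (27.3%, against 26.1% of all genes), and 3 rose and 0 fell in WT (27.3%, against 12%). Ckb, the cytosolic brain creatine kinase, rose by 0.50 ± 0.13 in EZH2nHom (edgeR adjusted p = 0.00861) and by 0.42 ± 0.13 in WT (edgeR adjusted p = 0.0345). Ckmt1, the mitochondrial creatine kinase that draws on ATP from complex V, had a log2 change of -0.48 ± 0.13 in EZH2nHom (edgeR adjusted p = 0.00885) and of -0.18 ± 0.12 in WT (edgeR adjusted p = 0.367). Gpx4, which reduces lipid peroxides, was higher in EZH2nHom after saline by 0.52 ± 0.09 (edgeR adjusted p = 0.00106).

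Among the remaining cell type markers, the myelin genes Mobp and Mbp of oligodendrocytes fell after kainate in EZH2nHom and neither passed in WT. Of 4 tested leukocyte markers Ly6c2 and Ccr2 rose in EZH2nHom and Ccr2 rose in WT. Of 5 oligodendrocyte precursor markers Pdgfra fell in WT, and of 7 pericyte and smooth muscle markers Myh11 fell in both genotypes and Rgs5 was higher in EZH2nHom after saline. Of 5 endothelial markers 0 passed in any comparison. The difference of the kainate responses between genotypes passed for 0 of these genes.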
